A study of Rattus norvegicus with 4 samples.

Results

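The genes of the Wnt pathway's core were followed in rat ear skin given Fgf7: the Wnt ligands, their Frizzled receptors and LRP co-receptors, the secreted SFRP and DKK antagonists, and the proteins that carry the signal through beta-catenin to the nucleus. They were chosen by name. Protein-coding rows named Wnt, Fzd, Sfrp or Dkk with a number were taken, with Lrp5, Lrp6, Ctnnb1, Apc, Axin1, Axin2, Lef1, Tcf7, Tcf7l1 and Tcf7l2, which gave 47 of the 54532 listed genes. Of these, 37 had a count in at least 1 library, 28 had enough counts to be tested, and 10 had none.

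Wnt proteins are secreted lipid-modified signals that bind a Frizzled receptor together with LRP5 or LRP6. Without a signal, a destruction complex built on APC and axin marks beta-catenin for degradation, and with a signal beta-catenin accumulates and acts with TCF/LEF factors on target genes. A separate branch, planar cell polarity, uses Frizzled receptors without beta-catenin to orient cells in a sheet. In skin, Wnt signals are known for the growth of hair follicles and for the upkeep of the basal epidermis.

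The libraries came from 2 Sprague Dawley rats, each with 1 ear given an adeno-associated virus with Fgf7 as cargo (AAV-Fgf7, genotype label Fgf7 overexpression) and the other a control virus (AAV-control, genotype label wt). Ear skin was collected on day 3, so that each group held 2 libraries, 1 from each animal. FGF7 is a growth factor of connective tissue cells that acts on epithelial cells. Where a group's values are given as a pair, rat 1 comes first and rat 2 second. Rat numbers follow the titles, and every ratio between the ears of a rat rests on them. The promoter of the virus, the cargo of the control virus, and the sex and age of the rats remain not given in the sources used here.

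Library totals ran from 1299136 to 1601321 counts, and the Wnt family members held 0.281% to 0.337% of them. Fgf7 itself had 94 and 110 counts under control virus and 454 and 1429 under AAV-Fgf7. All gene rows carry mouse Ensembl identifiers, with the way rat reads reached those rows not given in the sources used here. Transcripts that skin fibroblasts are known for, among them Dcn and Lum, are listed at 0 in every library, so a member without counts is described only as listed at 0. The tissue pieces also differed within each group. Summed levels of 21 skeletal muscle markers were 16065 and 66738 CPM (counts scaled to a common library total) under control virus and 35236 and 17213 CPM under AAV-Fgf7. For the hair follicle markers these sums were 275 and 1829 against 5153 and 501 CPM.

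Wnt4 and Wnt10a, ligands made by basal keratinocytes, stood above both controls under AAV-Fgf7, at 2.02 to 2.86 times the level of the other ear of the same rat. Sfrp2, an antagonist of fibroblasts, and Wnt11 stood below both controls. For all but 1 of the tested receptors, and for the tested members among the effectors (Ctnnb1, Apc, Axin1, Tcf7, Tcf7l1 and Tcf7l2), the groups overlapped. No member passed the edgeR quasi-likelihood test at an adjusted p under 0.05, and neither did any gene of the table (0 of 6370, or 0%). At an unadjusted p under 0.05 there were 3 of 28 members (10.7%), Wnt4, Wnt10a and Sfrp2, against 2.32% of all tested genes. Of the 3, 2 were higher (background 1.71%) and 1 was lower (background 0.612%). With rat as a replicate block, Wnt4 and Wnt10a remained below that p, against 1.18% of all tested genes. The count was 5 without the control library of rat 1 (with Fzd4 and Tcf7 added, among 9.53% of all tested genes) and 1 with rat 2's AAV-Fgf7 library left out (Wnt10a, among 0.947% of all tested genes). DESeq2 called 0 members after adjustment (0.0233% of all genes: Fgf7, H2afv and Sfn) and had 1 at an unadjusted p under 0.05, Wnt4 (0.651% of all genes). The groups did not overlap for 6 of 28 members (21.4%), against 28.1% of all tested genes, so this share was not above the background. The groups lay apart upward for 3 members (background 14.8%) and downward for 3 (background 13.3%). A log2 fold change above 0, AAV-Fgf7 over control, was found for 15 members (53.6%) and for 47.8% of all tested genes. The median was 0.07 over the tested members and -0.02 over all tested genes.

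**Figure D1:**
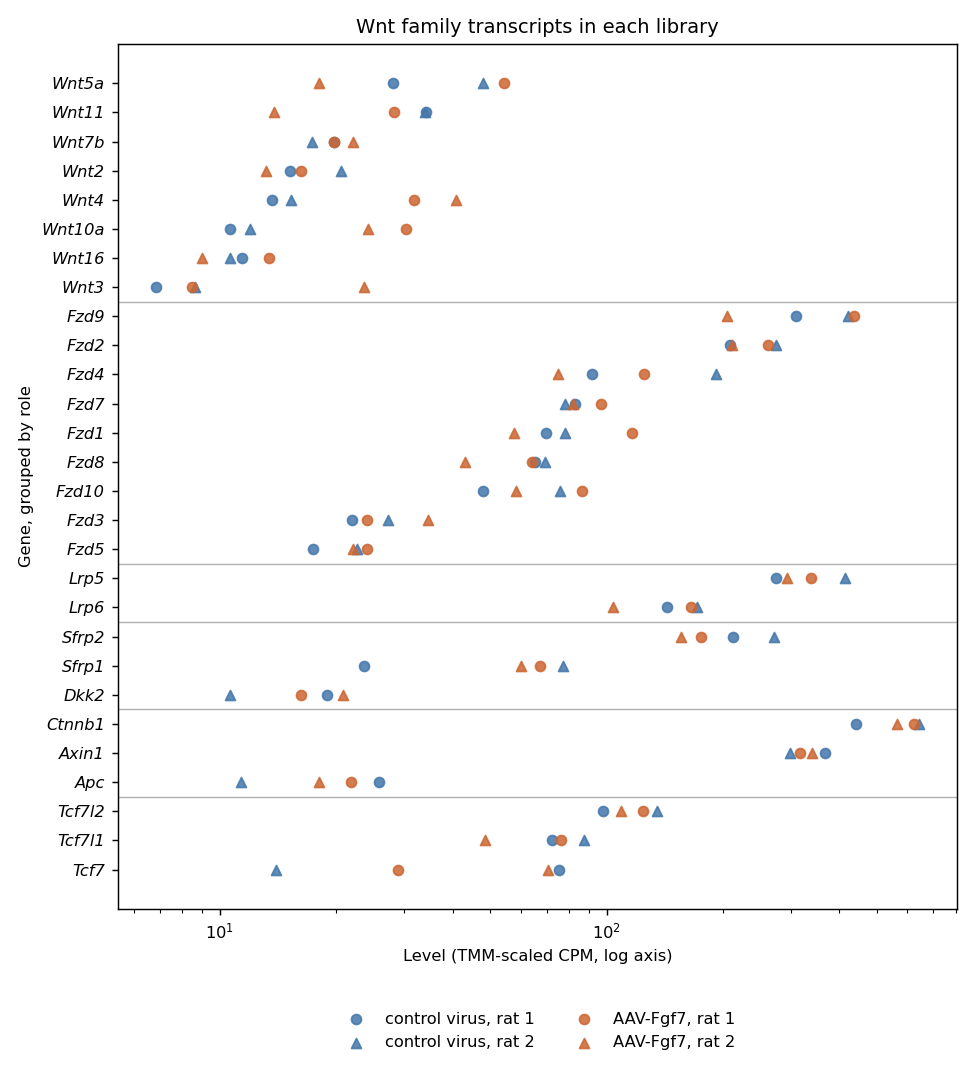
Level of each of the 28 tested Wnt family members in the 4 libraries, in TMM-scaled CPM on a log axis, with genes grouped by role. Blue marks control virus and orange AAV-Fgf7, with circles for rat 1 and triangles for rat 2. Orange points lie right of both blue points for Wnt4 and Wnt10a, and left of them for Wnt11 and Sfrp2, whereas Tcf7 is high in the control of rat 1 and the AAV-Fgf7 ear of rat 2.

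Among the ligands, 12 of 19 had a count and 8 were tested, 5 with a positive and 3 with a negative log2 fold change. Summed over the 19 ligands, the level was 145 and 177 CPM under control virus and 207 and 171 CPM under AAV-Fgf7. The sum therefore overlapped between the groups.

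Wnt4, a ligand of basal epidermis that is also known for kidney and ovary development, had counts of 18 and 23 under control virus and 45 and 59 under AAV-Fgf7. These correspond to 13.7 and 15.3 CPM against 31.8 and 40.8 CPM, without overlap. The mean was 14.5 ± 1.16 CPM under control virus and 36.3 ± 6.41 CPM under AAV-Fgf7 (SD, n = 2). The AAV-Fgf7 ear stood at 2.33 times the control ear in rat 1 and at 2.67 times in rat 2, ratios that rest on the rat numbers in the titles. In log2 the fold change was 1.32 (SE 0.35), and the edgeR quasi-likelihood test gave an adjusted p of 0.9996 (unadjusted p = 0.00947). With rat as a replicate block the unadjusted p was 0.0227. Leaving out each library in turn gave log2 fold changes from 1.13 to 1.48, with an unadjusted p of 0.0653 with rat 2's AAV-Fgf7 library left out. The files list the gene as ENSMUSG00000036856 on mouse chromosome 4 from 137277489 to 137299726 (plus strand), in a mouse build not given in the sources used here.

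Wnt10a, whose loss causes defects of teeth, hair and skin in people, had counts of 14 and 18 under control virus and 43 and 35 under AAV-Fgf7. In CPM these were 10.6 and 12.0 against 30.4 and 24.2, again without overlap. The mean was 11.3 ± 0.955 CPM under control virus and 27.3 ± 4.34 CPM under AAV-Fgf7 (SD, n = 2), and the AAV-Fgf7 ear stood at 2.86 times the control ear in rat 1 and at 2.02 times in rat 2. Unlike Wnt4, the level was higher in the AAV-Fgf7 ear of rat 1 than in that of rat 2. Its log2 fold change was 1.26 (SE 0.38), and the edgeR quasi-likelihood test gave an adjusted p of 0.9996 (unadjusted p = 0.0157). With rat as a replicate block the unadjusted p was 0.0404, and with rat 1's AAV-Fgf7 library left out it was 0.0910. The gene is listed on mouse chromosome 1 from 74791516 to 74804179 (plus strand). Its neighbour Wnt6 ends 6.19 kb before it on the same strand and had only 1 to 3 counts in each library.

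The 250 bases before the start of Wnt4 and Wnt10a are shown because these ligands had the lowest unadjusted p among the members and differed in the same direction. That of Axin2, a feedback gene of the pathway, is shown for comparison because it holds the motif searched for. The sequences are from RefSeq's rat assembly GRCr8, 5′ to 3′, and capitals mark CTTTGA, a core of the sites TCF/LEF factors bind (searched on both strands, as CTTTGA or TCAAAG):
Wnt4, chr5:154797200-154797449, plus strand: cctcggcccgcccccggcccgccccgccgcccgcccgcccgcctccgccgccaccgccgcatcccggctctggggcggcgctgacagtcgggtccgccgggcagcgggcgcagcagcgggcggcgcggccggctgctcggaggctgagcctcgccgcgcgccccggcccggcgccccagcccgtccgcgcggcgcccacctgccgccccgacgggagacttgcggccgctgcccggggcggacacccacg
Wnt10a, chr9:83798344-83798593, plus strand: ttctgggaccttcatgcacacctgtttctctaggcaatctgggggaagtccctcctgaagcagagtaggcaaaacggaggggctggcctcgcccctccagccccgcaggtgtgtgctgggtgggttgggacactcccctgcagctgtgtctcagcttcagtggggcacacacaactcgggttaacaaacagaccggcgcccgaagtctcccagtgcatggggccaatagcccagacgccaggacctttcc
Axin2, chr10:94398535-94398784, plus strand: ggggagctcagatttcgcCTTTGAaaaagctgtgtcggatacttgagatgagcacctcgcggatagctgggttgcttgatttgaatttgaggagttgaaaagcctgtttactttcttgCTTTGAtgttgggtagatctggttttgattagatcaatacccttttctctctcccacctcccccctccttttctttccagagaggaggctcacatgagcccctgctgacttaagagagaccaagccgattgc
The Axin2 window holds the motif 232 and 132 bases before the start, and these letters do not occur in the Wnt4 and Wnt10a windows. Promoter sequences matched 33 of 47 members by symbol, and 4 of them (Axin2, Dkk1, Fzd7 and Wnt8a) hold the motif, or 12.1%, against 13.9% of 33465 windows of the same length. The members' windows are rich in G and C, with a median of 64.8% against 51.2% over all windows. The Wnt4 window, at 86.4% G and C with 47 CpG dinucleotides, stands far from that of Wnt10a, at 61.2% with 8. The pair of ligands thus shares neither the motif nor the base composition in these windows.

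Markers of basal keratinocytes, cells known to make both ligands, were read beside them. The 12 markers, 11 of them with a count and Lama3 listed at 0, summed to 1305 and 1250.0 CPM under control virus and to 1995 and 3757 CPM under AAV-Fgf7. Of the 9 tested markers, 4 (Sfn, Krt14, Krt5 and Trp63) lay above both controls in each AAV-Fgf7 library, where 14.8% of all tested genes did, and 5 overlapped. None of them passed edgeR after adjustment. On a scale chosen after the values were seen, per 1000 CPM of this sum, Wnt4 stood at 10.5 and 12.2 CPM under control virus and at 15.9 and 10.9 CPM under AAV-Fgf7. Wnt10a stood at 8.14 and 9.58 against 15.2 and 6.45 on that scale. Both ligands were thus higher in the AAV-Fgf7 ear of rat 1 and lower in that of rat 2 on a scale made mostly of Krt14, Krt15, Krt5 and Sfn. The part of keratinocytes in the values of Wnt4 and Wnt10a was not tested. In bulk tissue, fewer cells of a type and less RNA per cell cannot be told apart.

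Of the other epidermal ligands, Wnt3, which can drive beta-catenin signalling, had counts of 9 and 13 under control virus and 12 and 34 under AAV-Fgf7. Only the AAV-Fgf7 library of rat 2 stood apart, at 23.5 CPM against 6.83 to 8.65 CPM in the others. The log2 fold change of 1.04 (SE 0.62) had an unadjusted edgeR p of 0.144, and it was 0.13 without that library. Wnt7b, another ligand of epithelia, stood at 19.7 and 17.3 CPM under control virus and 19.8 and 22.2 CPM under AAV-Fgf7. In rat 1 the ears were level, the groups lay apart only through rat 2, and they overlapped with RLE size factors. The log2 fold change was 0.18 (SE 0.36). Wnt16, a ligand of keratinocytes and bone, stood at 11.4 and 10.6 CPM against 13.4 and 9.0 CPM, with a log2 fold change of 0.02 (SE 0.47).

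Wnt11 and Wnt5a, ligands best known from signalling without beta-catenin, and Wnt2 all had negative log2 fold changes. All stood lower in the AAV-Fgf7 ear of rat 2, while in rat 1 they were mixed. Wnt11, a ligand of cell movement and polarity, had counts of 45 and 51 under control virus and 40 and 20 under AAV-Fgf7. Both AAV-Fgf7 libraries, at 28.2 and 13.8 CPM, lay below the controls at 34.2 and 33.9 CPM, and most of the difference was in rat 2. The log2 fold change was -0.69 (SE 0.43), with an unadjusted edgeR p of 0.154, and it was -0.27 with rat 2's AAV-Fgf7 library left out. Wnt5a, the main ligand of planar polarity, stood at 28.1 and 47.9 CPM under control virus and at 54.4 and 18 CPM under AAV-Fgf7. Its highest and lowest libraries were thus both AAV-Fgf7 libraries, and the AAV-Fgf7 ear stood at 1.94 times the control ear in rat 1 and at 0.376 times in rat 2 (log2 fold change -0.08, SE 0.57). Wnt2, a ligand of mesenchyme, stood at 15.2 and 20.6 CPM against 16.2 and 13.2 CPM, with a log2 fold change of -0.29 (SE 0.41).

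The remaining ligands had few counts or none. Wnt5b had counts of 4 and 10 under control virus and 0 and 6 under AAV-Fgf7, and Wnt6, an epidermal ligand, had 3 and 2 against 3 and 1. Wnt10b, a ligand of hair follicle growth, had counts of 0 and 3 under control virus and 0 and 2 under AAV-Fgf7, only in rat 2, and Wnt2b had 0 and 1 against 3 and 0. No difference was detectable with so few counts. Wnt1, Wnt3a, Wnt7a, Wnt8a, Wnt8b, Wnt9a and Wnt9b are listed at 0 in every library.

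**Figure D2:**
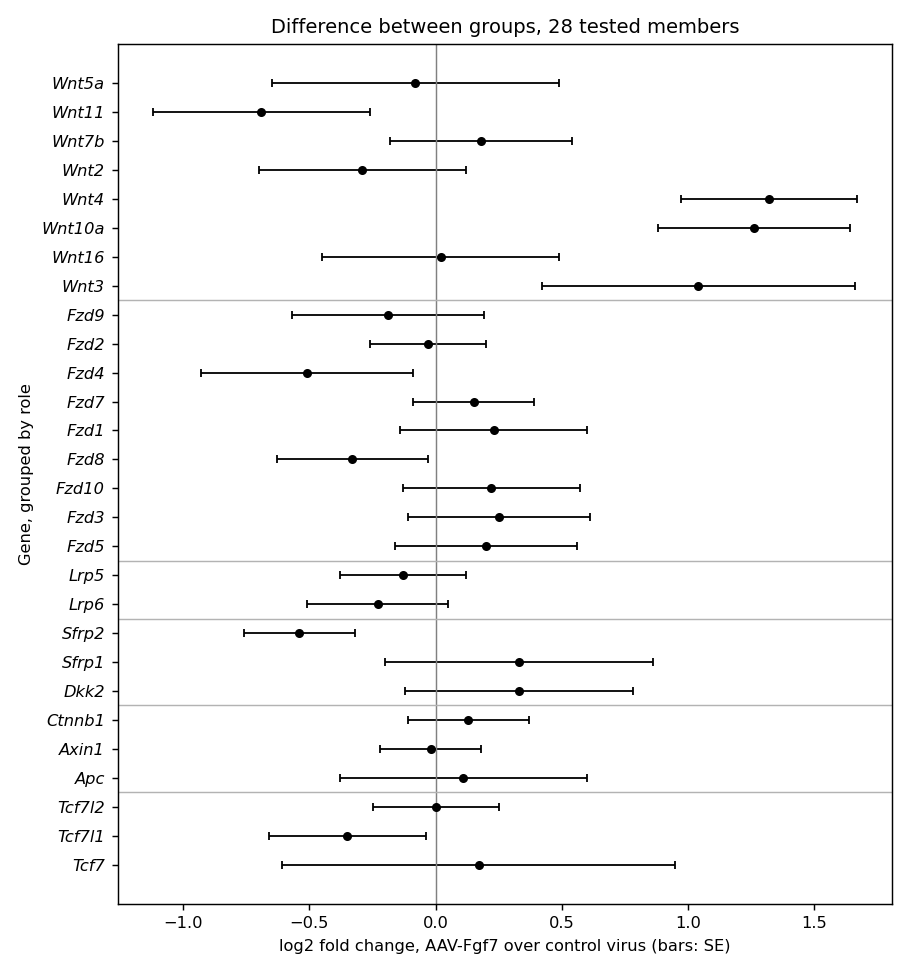
Log2 fold change of AAV-Fgf7 over control virus for the 28 tested members, with bars for the SE of the edgeR fit and genes grouped by role as in the plot of levels. Wnt4 (1.32) and Wnt10a (1.26) lie farthest above 0 and Wnt11 (-0.69) farthest below, and no member passed at an adjusted p under 0.05.

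Frizzled receptors, the seven-pass membrane proteins that bind Wnt ligands, were nearly all detected. All 10 had a count and 9 were tested, with 5 positive and 4 negative log2 fold changes from -0.51 to 0.25. Compared per length in the authors' FPKM, Fzd9 had the highest mean of all 47 members over the 4 libraries, at 147, and Fzd2 followed among the receptors at 63.9. These ranks order the listed values only. The way rat reads reached the mouse rows is not given, so they may not rank the transcripts by abundance. Fzd10, Fzd1, Fzd7, Fzd4 and Fzd8 stood between 17.7 and 20.2 FPKM, and Fzd5 and Fzd3 at 3.06 and 2.07 FPKM. Fzd6, a receptor known for hair orientation in mouse skin, had 1 count in all, in the control ear of rat 2.

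In Fzd9 and Fzd4 the libraries of a group lay far apart. Fzd9 stood at 309.8 and 422 CPM under control virus and at 436 and 205 CPM under AAV-Fgf7. The AAV-Fgf7 libraries thus held the highest and the lowest level, and the AAV-Fgf7 ear stood at 1.41 times the control ear in rat 1 and at 0.486 times in rat 2. Fzd4, a receptor of endothelial and stromal cells, stood at 91.9 and 192 CPM against 125 and 74.8 CPM. Its control libraries differed 2.09 times, and the log2 fold change of -0.51 (SE 0.42) was 0.12 without the control library of rat 2. That library also held the highest sums of muscle, cartilage, adipocyte and endothelial markers (66738, 2243, 570 and 170 CPM). The endothelial sums of the other libraries were 139 to 150 CPM. The fibroblast sum was highest in the AAV-Fgf7 ear of rat 1, at 41628 CPM against 41092 CPM in the control ear of rat 2. The part of these cell types in the difference was not tested.

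Apart from Fzd1, whose highest library stood at 2.03 times its lowest, the other receptors stayed closer together. Fzd2 stood at 209 and 274 CPM under control virus and at 261 and 210.5 CPM under AAV-Fgf7, with a log2 fold change of -0.03 (SE 0.23). Fzd7 stood at 82.8 and 77.9 CPM against 96.8 and 81.7 CPM, with 0.15 (SE 0.24). Fzd8 was the only receptor whose groups did not overlap, at 65.3 and 69.2 CPM under control virus and 64.3 and 42.9 CPM under AAV-Fgf7. In rat 1 the ears were nearly equal, with a ratio of 0.984, and the log2 fold change was -0.33 (SE 0.30). The remaining receptors had positive values and overlapping groups. Fzd1 stood at 69.9 and 77.9 CPM under control virus and at 117 and 57.5 CPM under AAV-Fgf7, with a log2 fold change of 0.23 (SE 0.37). Fzd10 stood at 47.8 and 75.9 CPM against 86.2 and 58.2 CPM, with 0.22 (SE 0.35), and like Fzd1 was highest in the AAV-Fgf7 ear of rat 1. Fzd3, which acts in planar polarity, stood at 22.0 and 27.3 CPM against 24 and 34.6 CPM, with 0.25 (SE 0.36). Fzd5 stood at 17.5 and 22.6 CPM against 24 and 22.2 CPM, with 0.20 (SE 0.36).

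The co-receptors LRP5 and LRP6, which pass the signal to axin once a Wnt protein is bound, had small negative values. Lrp5 stood at 275 and 414 CPM under control virus and 338 and 293 CPM under AAV-Fgf7, a log2 fold change of -0.13 (SE 0.25). Lrp6 stood at 144 and 171 CPM against 165 and 104 CPM (log2 fold change -0.23, SE 0.28). For both genes the AAV-Fgf7 ear was higher in rat 1 and lower in rat 2.

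Of the secreted antagonists, 5 of 8 had a count and 3 were tested. Sfrp2 encodes a Frizzled-related protein that binds Wnt ligands outside the cell and is abundant in dermal fibroblasts. It had counts of 279 and 407 under control virus and 249 and 225 under AAV-Fgf7, or 212 and 271 against 176 and 156 CPM. Both AAV-Fgf7 libraries lay below both controls, with means of 241 ± 41.8 and 166 ± 14.2 CPM (SD, n = 2). The AAV-Fgf7 ear stood at 0.830 times the control ear in rat 1 and at 0.575 times in rat 2. The log2 fold change was -0.54 (SE 0.22), and the edgeR quasi-likelihood test gave an adjusted p of 0.9996 (unadjusted p = 0.0464). With rat as a replicate block the unadjusted p was 0.110, and scaled by library totals only it was 0.0583. Leaving out each library in turn gave log2 fold changes from -0.71 to -0.35. The gene is listed on mouse chromosome 3 from 83766321 to 83774316 (plus strand).

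Fibroblast and dermal matrix markers were read beside Sfrp2. The 13 markers, 9 of them with a count and Col6a1, Dcn, Dpt and Lum listed at 0, summed to 35501 and 41092 CPM under control virus and to 41628 and 28506 CPM under AAV-Fgf7, and most of this sum is Col1a1. Of the 8 tested markers, 1 lay below both controls in each AAV-Fgf7 library (13.3% of all tested genes did) and 2 lay above (14.8% of all tested genes did). The marker that lay below, Col1a2, a collagen chain gene, stood at 707 and 715 CPM against 547 and 338 CPM (log2 fold change -0.68, SE 0.26). The edgeR quasi-likelihood test gave Col1a2 an adjusted p of 0.9996 (unadjusted p = 0.0401). The sum was thus higher in the AAV-Fgf7 ear of rat 1 and lower in that of rat 2. Col1a1, Col3a1, Col5a1, Fbn1 and Fbln1 had the same directions as the sum. Only Col1a2 of the tested markers was lower in both rats, as Sfrp2 was, and Col6a3 and Pdgfra were higher in both. Per 1000 CPM of this sum, a scale chosen after the values were seen, Sfrp2 stood at 5.97 and 6.59 CPM against 4.22 and 5.46 CPM. Wnt11 stood at 0.962 and 0.826 against 0.679 and 0.486 on that scale. The part of fibroblasts in the values of Sfrp2 and Wnt11 was not tested.

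**Figure D3:**
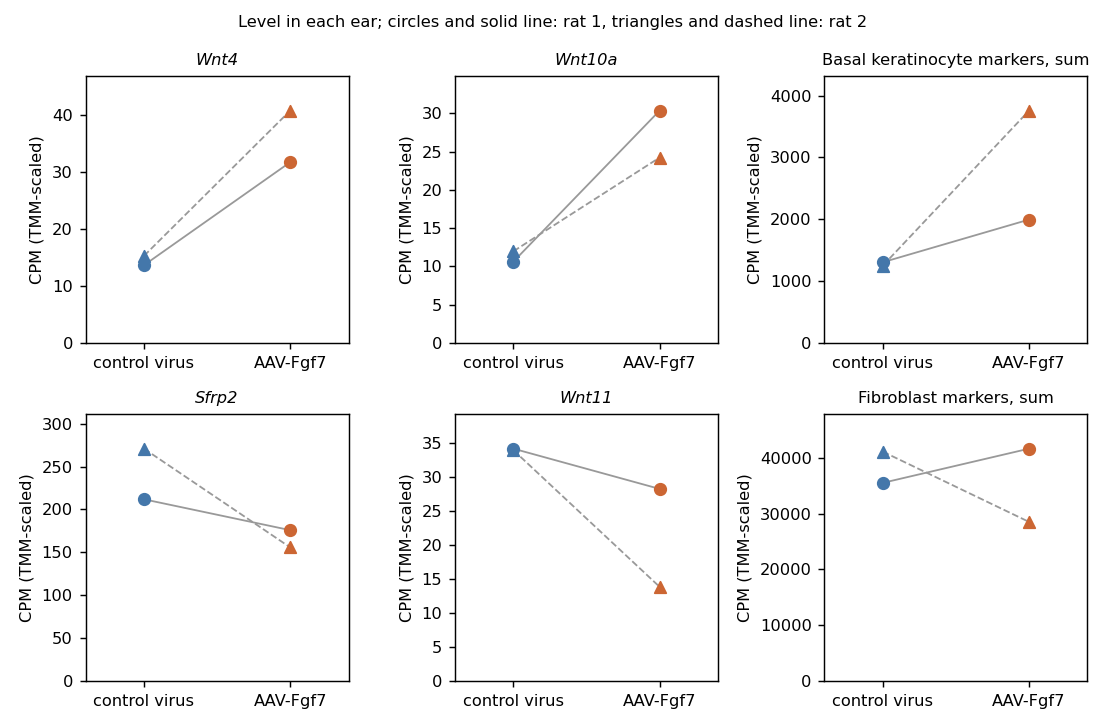
Levels of Wnt4, Wnt10a, Sfrp2 and Wnt11 in each ear, with the summed levels of basal keratinocyte and fibroblast markers, in TMM-scaled CPM on axes that start at 0. Lines join the ears of 1 rat (circles and solid line for rat 1, triangles and dashed line for rat 2). Wnt4 and Wnt10a lie higher in the AAV-Fgf7 ear of both rats, as does the keratinocyte sum, whereas the fibroblast sum is higher in rat 1 and lower in rat 2.

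Sfrp1, a Frizzled-related protein of hair follicle and dermal cells, had counts of 31 and 116 under control virus and 95 and 87 under AAV-Fgf7. The control ear of rat 1 stood apart at 23.5 CPM, with 60.2 to 77.2 CPM in the other libraries. The log2 fold change of 0.33 (SE 0.53) became -0.28 without that library and 1.44 without the control of rat 2. The control ear of rat 1 also held the lowest hair follicle sum (275 CPM), whose part in this value was not tested.

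Dickkopf proteins bind LRP5 and LRP6 or, in the case of DKK3, act otherwise. Dkk2 stood at 19.0 and 10.6 CPM under control virus and 16.2 and 20.8 CPM under AAV-Fgf7, a log2 fold change of 0.33 (SE 0.45). Dkk3 had 6 and 11 counts against 8 and 11 and was not tested. Sfrp4 had 1 count, in the AAV-Fgf7 ear of rat 1, and Dkk1, Dkk4 and Sfrp5 are listed at 0 in every library.

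Beta-catenin and axin 1, the centre of the pathway, had some of the higher listed levels among the members and differed little. Ctnnb1, which encodes beta-catenin, a protein also needed at adherens junctions, stood at 442 and 644 CPM under control virus and 624 and 564 CPM under AAV-Fgf7. Its log2 fold change was 0.13 (SE 0.24). Axin1, the scaffold of the destruction complex, stood at 367 and 298 CPM against 316 and 339 CPM (log2 fold change -0.02, SE 0.20). Apc, the other scaffold of that complex, had counts of 34 and 17 against 31 and 26 and a log2 fold change of 0.11 (SE 0.49). Transcript levels do not measure the amount or location of beta-catenin protein.

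Axin2, whose transcript is widely used as a readout of beta-catenin signalling, had too few counts for a test. It had counts of 4 and 3 under control virus and 6 and 10 under AAV-Fgf7, or 3.04 and 2.0 against 4.24 and 6.92 CPM. Both AAV-Fgf7 libraries lay above both controls, on few counts. Without the low-count filter edgeR gave it no call. Lef1, a TCF/LEF factor of hair follicle precursors that is itself a target, had counts of 5 and 3 against 6 and 2.

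The TCF/LEF factors, which carry beta-catenin to DNA or repress targets in its absence, had log2 fold changes from -0.35 to 0.17. Tcf7l2 stood at 97.9 and 135 CPM under control virus and 124 and 109 CPM under AAV-Fgf7, and its log2 fold change was 0.00 (SE 0.25). Tcf7l1, a repressor of hair follicle stem cells, stood at 72.1 and 87.2 CPM against 76.3 and 48.5 CPM (log2 fold change -0.35, SE 0.31). Tcf7, a factor of T cells as well as of skin appendages, varied most of the tested members, 5.38 times between its highest and lowest library. It stood at 75.2 and 14.0 CPM under control virus and at 29.0 and 70.6 CPM under AAV-Fgf7. The AAV-Fgf7 ear stood at 0.385 times the control ear in rat 1 and at 5.05 times in rat 2, in opposite directions, and the log2 fold change of 0.17 (SE 0.78) became -0.61 with rat 2's AAV-Fgf7 library left out. The T cell kinase gene Lck, looked at after these values were seen, had the same order, with 41.0 and 2.0 CPM under control virus and 13.4 and 35.3 CPM under AAV-Fgf7. The T cell receptor chains Cd3d, Cd3e and Cd3g are listed at 0 in every library, and a part of T cells in the Tcf7 values was not tested.

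Beyond the core members, 91 other genes of Wnt signalling were read in 6 lists. Of these, 83 had a count and 57 were tested, with 30 positive and 27 negative log2 fold changes and a median of 0.02. None passed edgeR after adjustment or was called by DESeq2, and 3 had an unadjusted p under 0.05, all higher (5.26% against 2.32% of all tested genes): Porcn, Celsr2 and Ptk7. The groups did not overlap for 25 of the 57 (43.9% against 28.1% of all tested genes). They lay higher for 17 (29.8% against 14.8%) and lower for 8 (14.0% against 13.3%).

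The list of Wnt secretion, R-spondins and their receptors had 5 tested genes of 11, 1 positive and 4 negative, with a median of -0.15. Porcn encodes the enzyme that attaches the lipid to Wnt proteins and so is needed for their release. It had counts of 113 and 156 under control virus and 191 and 232 under AAV-Fgf7, or 85.8 and 104 against 135 and 161 CPM. All AAV-Fgf7 values lay above the controls, with a log2 fold change of 0.64 (SE 0.22) and an unadjusted edgeR p of 0.0291 (0.0527 with rat as a replicate block). Wls, the carrier that brings Wnt proteins to the cell surface, differed little, with a log2 fold change of -0.07 (SE 0.23). Rspo1, a secreted enhancer of Wnt signals, had one of -0.85 (SE 0.63), with 69 counts in the control ear of rat 2 and 17 to 27 in the other libraries. Its receptor Lgr4 and the ubiquitin ligase Znrf3, which removes Frizzled receptors, each stood at -0.15 (SE 0.50 and 0.34).

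Planar polarity and other components of signalling without beta-catenin had the most positive median of the 6 lists, 0.35 over 12 tested genes of 18, with 9 positive and 3 negative. Of these 12, 5 lay above both controls in each AAV-Fgf7 library (14.8% of all tested genes did) and 2 lay below (13.3% did). The 2 below were Prickle2, another planar polarity gene, and Rhoa, with log2 fold changes of -0.63 (SE 0.29) and -0.14 (SE 0.17). Prickle2 stood at 45.6 and 47.9 CPM under control virus and 31.1 and 29.1 CPM under AAV-Fgf7. Celsr2, an atypical cadherin of planar polarity, stood at 42.5 and 49.9 CPM under control virus and 94.6 and 76.9 CPM under AAV-Fgf7. This gave 0.89 (SE 0.27) on the log2 scale and an unadjusted edgeR p of 0.0165 (0.0493 with rat as a replicate block). Ptk7, a kinase-like co-receptor, stood at 22.8 and 14.0 CPM against 30.4 and 48.5 CPM (log2 fold change 1.10, SE 0.42) with an unadjusted edgeR p of 0.0393 (0.0870 with the block). Celsr1 and the membrane protein gene Vangl2, core members of epidermal planar polarity, had a log2 fold change of 0.80 (SE 0.34) and of 1.13 (SE 0.50). Both also stood above the controls in each AAV-Fgf7 library, without an unadjusted p under 0.05. The sum of basal keratinocyte markers, 1305 and 1250.0 CPM under control virus and 1995 and 3757 CPM under AAV-Fgf7, was also higher in both rats. Per 1000 CPM of it, Celsr2 stood at 32.6 and 39.9 CPM against 47.4 and 20.5 CPM. On that scale Ptk7 stood at 17.5 and 11.2 against 15.2 and 12.9, and Porcn at 65.7 and 83.1 against 67.6 and 42.7. The part of the sum in the planar polarity values and in those of Porcn was not tested.

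**Figure D4:**
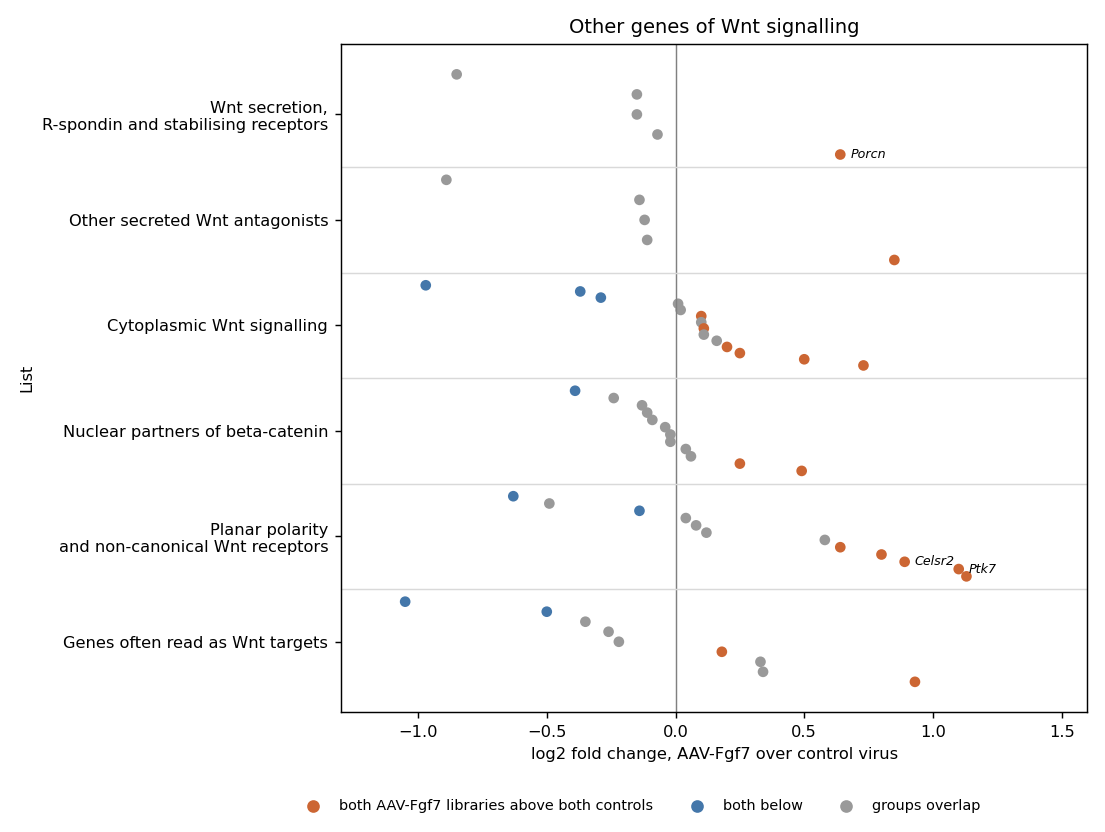
Log2 fold change of AAV-Fgf7 over control virus for the 57 tested genes of 6 other Wnt pathway lists, 1 point a gene, spread vertically within a list by rank. Orange marks genes with both AAV-Fgf7 libraries above both controls, blue those with both below and grey those whose groups overlap, and names are given at an unadjusted p under 0.05. The planar polarity list holds Celsr2 and Ptk7 (0.89 and 1.10).

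Wnt antagonists outside the SFRP and DKK families had 5 tested genes of 11, with a median of -0.12. Sostdc1, an inhibitor of Wnt and BMP signals made in skin epithelium, stood at 31.1 and 27.3 CPM under control virus and 39.5 and 65.8 CPM under AAV-Fgf7, a log2 fold change of 0.85 (SE 0.36). Frzb, a Frizzled-related protein of cartilage, stood at 31.9 and 99.2 CPM against 47.3 and 23.5 CPM (log2 fold change -0.89, SE 0.60). The control ear of rat 2 was highest both for Frzb and for cartilage markers, which summed to 673 and 2243 CPM under control virus and 1197 and 686 CPM under AAV-Fgf7. Their part in the Frzb values was not tested. Igfbp4, Notum, which removes the lipid of Wnt proteins, and Wif1 had log2 fold changes of -0.11 (SE 0.31), -0.14 (SE 0.60) and -0.12 (SE 0.62).

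Cytoplasmic components had 14 tested genes of 18, with 11 positive values and a median of 0.10. Dvl2, which encodes a Dishevelled adaptor below the Frizzled receptors, had the lowest p of this list, with 15.2 and 20.6 CPM under control virus and 11.3 and 6.92 CPM under AAV-Fgf7 (log2 fold change -0.97, SE 0.47). The feedback inhibitor gene Nkd1 stood at 0.73 (SE 0.50), and the casein kinase genes Csnk1e and Csnk1a1 at 0.50 (SE 0.34) and 0.25 (SE 0.17). Nuclear partners of beta-catenin had 12 tested genes of 15, with a median of -0.03. The corepressor gene Tle3 stood at 0.49 (SE 0.21), and Bcl9, an adaptor of beta-catenin, at 0.25 (SE 0.22). Pygo2, which joins that adaptor to chromatin, had -0.39 (SE 0.51) and the acetylase gene Ep300 had -0.11 (SE 0.21).

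Genes often read as Wnt targets did not share a direction. Of 18 listed, 9 were tested, 4 positive and 5 negative, with a median of -0.22. Ctgf (Ccn2) and Cyr61 (Ccn1), matrix-associated genes that also answer to YAP, stood below the controls in each AAV-Fgf7 library, with log2 fold changes of -0.50 (SE 0.24) and -1.05 (SE 0.51). Cd44, a hyaluronan receptor gene, stood above them, with 0.93 (SE 0.49), from 12 and 10 counts under control virus against 17 and 26. The transcription factor gene Jun stood at -0.35 (SE 0.28). Sp5, also of this list, had 4 to 7 counts in each library and was not tested.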

How the data were processed

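RNA-seq was done on ear skin of 2 rats, 1 library per ear. The authors deposited raw counts per gene and FPKM for the same 54532 genes. Per the submitters' processing notes, the build was Rnor_6.0 (rn6), while all rows carry mouse identifiers. The aligner, the counter and strand use remain not given in the sources used here. In these files FPKM equals the count over gene length and a scaled library total. Both AAV-Fgf7 descriptions name 1 and the same column, so the other was assigned to rat 2 by number and title. Titles and design text disagree on the ear side, which was not used.

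Genes passing filterByExpr of edgeR 4.0.16 (R 4.3.3), 6370 in all, were scaled by TMM and tested by the two-sided quasi-likelihood test, adjusted by Benjamini-Hochberg over all of them at 0.05. SE is the log2 fold change over the root of F. For 1 gene, exact permutation cannot go below p = 0.33 here. Alternatives used DESeq2 1.42.0, limma 3.58.1, FPKM with pseudocounts of 1 and 0.1, and other filters. The ears of a rat pair the libraries, per the titles, although same-rat deviations correlated at r = -0.30 over 6370 genes. Every pair of libraries differed by more than sampling noise (chi-square per degree of freedom from 6.26 to 20.5). This value was 9.47 between the ears of rat 1 and 20.5 between those of rat 2. Across the rats it was lower, 6.26 for rat 1's control with rat 2's AAV-Fgf7 library and 8.38 for rat 2's control with rat 1's AAV-Fgf7 library. The rat numbers could not be checked further here. Symbols of all 47 members occur in RefSeq's rat table (GRCr8), and 5 listed symbols were matched by an older name. Every member with a count was named, with all tested genes of 2 small lists and up to 4 of lowest p from each other list. Prickle2 and Rhoa were added as the planar polarity list's genes with both AAV-Fgf7 libraries below both controls. The members and lists were chosen with earlier results of these data known. Not analysed here were the authors' group means.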

Additional observations from a re-analysis of the deposited data

How the results depend on the processing

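The edgeR count of 0 called genes became 3 with DESeq2 and 3 without the low-count filter (Fgf7, H2afv and Rabac1), none of them a Wnt family member or a gene of the other Wnt pathway lists, and it ran from 0 to 59 when 1 library was left out (59 without the control of rat 1, 40 without that of rat 2). Called members stayed at 0 throughout. The number of members at an unadjusted p under 0.05 was 3, and it was 1 with DESeq2 and 1 to 5 when 1 library was left out. Members whose groups did not overlap numbered 6, with 5 to 7 under the other alternatives and 13 to 21 when 1 library was left out, where 3 libraries overlap less by construction. The median log2 fold change of the members ran from -0.09 to 0.15. Wnt4, Wnt10a, Sfrp2, Wnt11 and Fzd8 kept groups that did not overlap under all 11 alternatives with 4 libraries, and Wnt7b did not. Not all of these are separate checks. Limma-voom and the fits with a replicate block use the scaled levels of the main fit, so their overlap was fixed in advance. Both FPKM fits use the same FPKM values. With rat as a replicate block, edgeR called 0 genes (75 at an unadjusted p under 0.05 against 148), and the block changed no call. Crossing the numbers, an alternative chosen after seeing the data, gave 0 called genes and 301 at an unadjusted p under 0.05.

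Among 54 genes followed, 12 values with all 4 libraries changed sign, all within 0.05 of 0. With library totals only, Axin1 stood at 0.02, Tcf7l2 at 0.05 and Fzd2 at 0.01. Tcf7l2 stood at 0.01 with limma-voom, both FPKM fits, the protein-coding set without ribosomal protein genes and both blocks. Wnt16 stood at 0 with limma-voom and at 0 and -0.01 with FPKM pseudocounts of 1 and 0.1. A further 41 changed sign when 1 library was left out. Their ranges were, for the ligands, Wnt5a -1.08 to 0.51 and Wnt16 -0.29 to 0.28. For receptors and co-receptors they were Fzd1 -0.37 to 0.66, Fzd2 -0.22 to 0.18, Fzd3 -0.04 to 0.48, Fzd4 -0.95 to 0.12, Fzd9 -0.84 to 0.25, Fzd10 -0.10 to 0.60, Lrp5 -0.39 to 0.20 and Lrp6 -0.60 to 0.07. For antagonists and effectors they were Sfrp1 -0.28 to 1.44, Dkk2 -0.03 to 0.79, Ctnnb1 -0.12 to 0.43, Axin1 -0.16 to 0.14, Apc -0.37 to 0.81, Tcf7 -0.61 to 1.83 and Tcf7l2 -0.21 to 0.25. For genes of the other lists they were Rspo1 -1.48 to 0.35, Znrf3 -0.38 to 0.13, Wls -0.28 to 0.12, Lgr4 -1.10 to 0.42, Frzb -1.48 to 0.16, Igfbp4 -0.36 to 0.10, Notum -0.93 to 0.43, Wif1 -0.91 to 0.39, Ep300 -0.26 to 0.06 and Jun -0.66 to 0.04. Few counts limit what some members can show, and each fit without 1 library assumes that the lone library varies like the other group.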
